A study of Mus musculus with 12 samples.

Results

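The Slc2 genes encode the facilitative sugar transporters known as GLUT proteins, and 7 of them were followed here across microglial preparations from wild-type mice and mice labelled CPEB1 knockout, with and without lipopolysaccharide (LPS). They are Slc2a1, Slc2a3, Slc2a5, Slc2a6, Slc2a8, Slc2a12 and Slc2a13, matched by gene name in the deposited tables, and they make up 7 of the 23845 genes listed. The members were chosen with earlier results from the same tables known, and which comparisons chose them is not stated. Their responses to LPS were taken to be among these. Their LPS values are therefore given as a description, with no p-value, and where a member is said to be called with LPS this only places it against the threshold used for all genes. The genotype comparisons are tested over all genes, but earlier results were known when the genes were chosen. The genotype differences may also have chosen them, so these tests are not independent evidence either.

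The cells, microglia enriched on Percoll gradients, came from C57BL6/J mice of 3 to 4 months. The 12 libraries, each from 1 animal, form 4 groups of 3: WT (wild type), WT-LPS (wild type with LPS), CPEB1-KO (animals labelled as CPEB1 knockout) and CPEB1-KO-LPS (the same genotype with LPS). LPS, an outer membrane component of Gram-negative bacteria that drives innate immune activation, was given by injection 24 h before harvest. All animals carried the same strain label. CPEB1 is an RNA-binding protein that acts on poly(A) tails and translation, and the sources used here do not state the knockout allele or the LPS dose.

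GLUT proteins let hexoses and related polyols cross membranes down their concentration gradient, without energy input except where a proton is carried along. Glucose that enters a cell is trapped by hexokinases, whereas fructose is mostly phosphorylated by ketohexokinase. In the brain, Slc2a1 supplies the blood-brain barrier and glia, Slc2a3 supplies neurons, and the fructose transporter Slc2a5 is known among brain cells as a transcript of microglia.

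The level of a gene is given below in TPM, a count of transcripts scaled to a fixed total, which corrects for gene length and so allows genes to be set side by side. Differences are log2 fold changes from an edgeR fit of the expected counts of all 12 libraries, with their standard error (SE). A gene was called changed at a false discovery rate (FDR) under 0.05 over 15295 genes tested, and all 7 members passed the filter on low counts. Counts at an unadjusted p under 0.05 belong beside those over all 15295 genes. These were 3136 with LPS in CPEB1-KO, 2844 between CPEB1-KO and WT, and 1653 between CPEB1-KO-LPS and WT-LPS. For the difference of the 2 LPS responses the number was 2365, and for the average genotype difference 1772. Library totals ranged from 5.02 to 13.5 M expected counts, with WT replicates 2 and 3 the shallowest at 5.02 M and 5.40 M. TPM and the edgeR scaling differ: on the TPM scale the median gene was shifted by 0.28 (log2) between WT-LPS and WT and by 0.26 between CPEB1-KO and WT, so small differences in TPM are read from the fit. Cpeb1 transcripts were present in the libraries labelled knockout, at 21.8 ± 4.42 TPM (SD, n = 3) against 26.2 ± 14.9 TPM in WT. Gene-level values cannot show a partial deletion, so genotype is used here only as labelled. Homeostatic microglial markers were high, but the preparations also held transcripts of other cells, among them haemoglobin and neuronal, choroid plexus, myelin, monocyte and neutrophil genes. The summed level of 6 monocyte markers was 37.4 to 59.05 TPM in WT and 249 to 501 TPM in WT-LPS. In CPEB1-KO it was 18.0 to 85.7 TPM, and in CPEB1-KO-LPS 98.0 to 156 TPM. For 7 neutrophil markers it was 1102 to 2723 TPM in WT and 1476 to 3158 TPM in WT-LPS. In CPEB1-KO it was 518 to 2899 TPM, and in CPEB1-KO-LPS 1296 to 4035 TPM. The part of these cells in the member values was not tested. In such bulk samples, fewer cells of a type and less RNA per cell cannot be told apart.

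Slc2a5 lies on chromosome 4 (150119283 to 150144169 of mm10, plus strand, GENCODE M21), and Slc2a1 lies on the same chromosome (119108711 to 119137983, plus strand). Slc2a12 is on chromosome 10 (22645011 to 22704285, plus strand). The stretches of 250 bases before the RefSeq start are shown for these genes because Slc2a5 and Slc2a12 were the members lower with LPS in both genotypes and Slc2a1 was the member higher in WT. They are from RefSeq (GRCm38.p6), read 5′ to 3′ on the plus strand, at chr4:150119094-150119343, chr4:119108495-119108744 and chr10:22644761-22645010. Capitals mark matches to the motifs listed after them.
Slc2a5: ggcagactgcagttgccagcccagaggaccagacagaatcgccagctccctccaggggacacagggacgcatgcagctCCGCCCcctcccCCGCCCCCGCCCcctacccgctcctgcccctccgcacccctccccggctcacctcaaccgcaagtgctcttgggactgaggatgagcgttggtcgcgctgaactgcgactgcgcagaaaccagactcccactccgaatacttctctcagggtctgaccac
Slc2a1: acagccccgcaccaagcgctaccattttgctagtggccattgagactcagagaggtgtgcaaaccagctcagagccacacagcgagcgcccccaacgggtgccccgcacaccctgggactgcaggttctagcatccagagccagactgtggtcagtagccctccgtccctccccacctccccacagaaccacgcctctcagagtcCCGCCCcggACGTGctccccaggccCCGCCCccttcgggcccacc
Slc2a12: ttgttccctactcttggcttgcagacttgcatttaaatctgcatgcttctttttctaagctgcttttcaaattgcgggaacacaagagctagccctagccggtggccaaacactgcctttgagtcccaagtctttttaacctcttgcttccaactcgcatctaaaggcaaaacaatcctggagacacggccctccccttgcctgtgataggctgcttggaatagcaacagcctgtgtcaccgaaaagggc

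RefSeq promoter entries matched 6 of the 7 members by symbol, all but Slc2a3. Both strands of the window from 250 bases before to 50 bases after the start were searched for ACGTG (the hypoxia response core), the NF-κB consensus, GAGGAA (the core bound by PU.1, a myeloid lineage factor), GGGCGG (the GC box) and TTCNNNGAA (the GAS element of STAT factors). No window position was shared between matches of different motifs in these promoters. Slc2a5 had 3 GC boxes on its minus strand, between 172 and 149 bases before the start, and no match to the other motifs. In the Slc2a1 window there were 2 GC boxes and 1 ACGTG, the latter 36 to 32 bases before the start, while the Slc2a12 window had no match. A GC box was present in 4 of 6 members and in 35.7% of all 32851 promoters of this length. ACGTG was in 1 of 6 members and 19.6% of all promoters, and the NF-κB consensus in 1 of 6 (Slc2a13) and 8.46%. GAGGAA and the GAS element were in no member and in 28.3% and 8.30% of all promoters. GENCODE M21 places the Slc2a5 start 61 bases and the Slc2a1 start 34 bases upstream of the RefSeq start, inside the stretches shown.

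Slc2a5 was the member with the widest range of levels. WT replicates 1 to 3 had 60.29, 25.83 and 25.61 TPM, and the CPEB1-KO libraries 3.59, 2.10 and 3.55 TPM. After LPS the wild-type libraries had 0.80, 0.64 and 0.65 TPM, and the CPEB1-KO-LPS libraries 0.55, 0.33 and 0.66 TPM. The groups followed each other in the order WT, CPEB1-KO, WT-LPS and CPEB1-KO-LPS, with no overlap between the first, the second and either LPS group, and with overlapping values in the 2 LPS groups. WT replicate 1 stood above the other WT libraries. The expected counts behind these levels were 283 to 1109 per WT library and 50 to 70 per CPEB1-KO library. They were 12 to 17 and 8 to 12 in the WT-LPS and CPEB1-KO-LPS libraries, so the levels after LPS rest on few reads.

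With LPS, Slc2a5 was lower by a log2 fold change of -6.04 ± 0.41 (SE, 95% interval -6.92 to -5.16) in WT, a 65.7-fold difference. In CPEB1-KO, which started from a lower level, the value was -2.55 ± 0.40 (-3.41 to -1.69), a 5.84-fold difference. The homeostatic markers of microglia moved with it. With LPS in WT edgeR called 8 of 12 lower, where 14.9% of all genes were, with a median log2 fold change of -2.25. In CPEB1-KO it called 3 of 12 lower, where 2.12% of all genes were, with a median of -1.46. The summed level of these markers was 6065 to 6935 TPM in WT and 995 to 4639 TPM in WT-LPS. In CPEB1-KO it was 2914 to 4655 TPM, and in CPEB1-KO-LPS 684 to 2898 TPM. The part of microglial content in the Slc2a5 values with LPS was not tested.

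**Figure D1:**
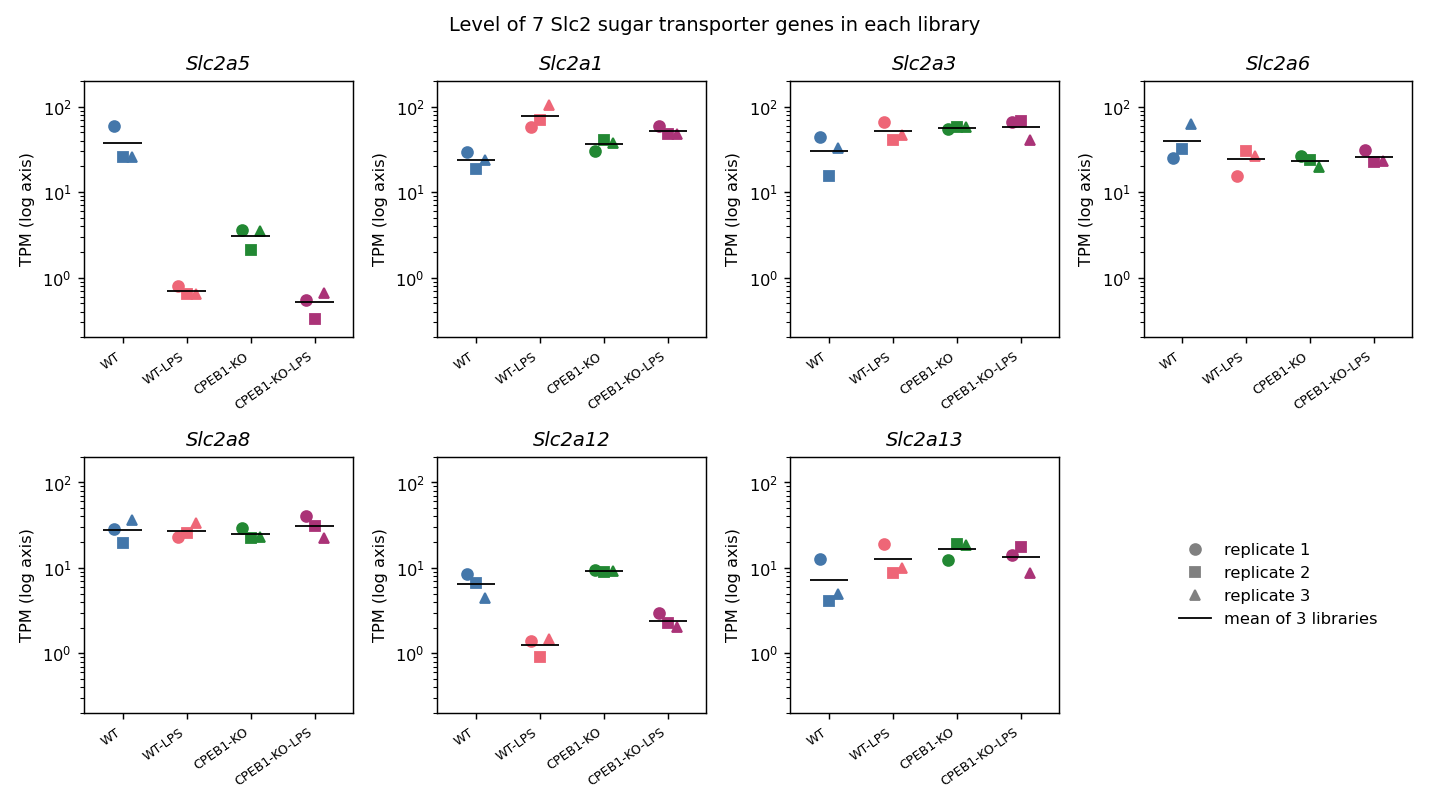
TPM (log axis) of the 7 Slc2 genes in each library, by group, with a different symbol for each replicate and a line at the mean of 3 libraries. Slc2a5 spans 60.29 TPM in WT replicate 1 to 0.33 TPM in CPEB1-KO-LPS replicate 2, while Slc2a8 stays between 19.5 and 40.6 TPM in all libraries.

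Slc2a1 encodes GLUT1, the carrier of basal glucose uptake in most cells and of glucose passage across brain endothelium. In wild type its levels were 29.27, 18.58 and 23.54 TPM without LPS and 58.15, 70.25 and 105.4 TPM with it. In the libraries labelled knockout they were 30.74, 40.75 and 37.59 TPM without LPS and 59.39, 48.07 and 48.26 TPM with it. Every library with LPS lay above every library without it. The difference with LPS was 1.37 ± 0.21 (0.91 to 1.83) in WT, a 2.58-fold difference, and 0.56 ± 0.21 (0.11 to 1.01) in CPEB1-KO, where it did not reach the threshold. The WT value was not called once both shallow WT libraries were left out (1.33). In WT this is the opposite direction to Slc2a5. Brain endothelial markers moved unevenly beside it in WT: of 10 markers, Cldn5 (1.85 ± 0.35), Flt1 (3.13 ± 0.62) and 1 other were called higher. A further 2 were called lower, and the median was -0.09, where 12.4% and 14.9% of all genes were called higher and lower. Among those with lower TPM, Itm2a and Slco1a4 went from means of 16.4 and 3.70 to 8.51 and 1.72. In CPEB1-KO 0 of 10 were called higher and 3 lower, with a median of -0.99, where the shares were 4.10% and 2.12%. Summed over the list, the endothelial level in wild type was 38.9 to 52.4 TPM without and 58.8 to 156 TPM with LPS. In knockout it was 48.9 to 79.5 TPM without and 39.5 to 43.6 TPM with LPS, and no marker was at 0. Its part in the Slc2a1 values was not tested.

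Slc2a3, the high-affinity glucose transporter GLUT3 of neurons and also of leukocytes, is on chromosome 6 (122727809 to 122801640 of mm10, minus strand). The WT libraries had 43.87, 15.47 and 32.8 TPM, and the WT-LPS libraries 66.75, 41.18 and 46.71 TPM. The CPEB1-KO libraries had 54.27, 58.16 and 58.68 TPM, and after LPS 66.07, 68.92 and 40.38 TPM. The LPS groups overlapped their untreated groups, and the log2 fold changes were 0.44 ± 0.26 in WT and 0.05 ± 0.25 in CPEB1-KO. Within wild type, WT-LPS was above WT in each of the 3 same-numbered pairs, though the labels give no shared litter or day. The value was 0.51 ± 0.24, not called, in a fit of these 2 groups with the replicate number as a block. WT replicate 2 was the lowest library for Slc2a3, and it also had the lowest summed level of 10 neuron markers, at 1225 TPM. That sum ran from 1225 to 3415 TPM over the WT libraries and from 1929 to 5515 TPM over WT-LPS. Over CPEB1-KO it ran from 3477 to 4905 TPM, and after LPS from 2250 to 4221 TPM. No neuron marker was at 0. With LPS, 0 of 10 passed the threshold in either genotype, where 27.4% (WT) and 6.22% (CPEB1-KO) of all genes did. The share of the Slc2a3 signal that came from neurons was not tested.

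Slc2a6 and Slc2a8 encode GLUT6 and GLUT8, transporters found mainly on internal membranes, GLUT6 on lysosomes of macrophages. Slc2a6 (chromosome 2, 27021363 to 27027998, minus strand) was measured at 25.29, 31.7 and 63.25 TPM in WT and at 15.57, 30.65 and 26.3 TPM in WT-LPS. In CPEB1-KO the values were 26.58, 23.81 and 19.69 TPM, and in CPEB1-KO-LPS they were 31, 22.27 and 23.27 TPM. All groups overlapped, and WT replicate 3 was far above the other 11 libraries. The fitted difference with LPS in WT was -1.07 ± 0.35 and was called, but the call did not hold when some single libraries were left out. It was lost without WT replicate 2 or 3, WT-LPS replicate 1 or 3, CPEB1-KO replicate 2, or CPEB1-KO-LPS replicate 1 or 2. With the replicate number as a block it was -1.05 ± 0.36 over all 12 libraries, not called, and -1.004 ± 0.27 over the 2 wild-type groups, called, and WT-LPS was below WT in each same-numbered pair. The value was -0.64 without WT replicate 3 and -0.13 without both shallow WT libraries. In CPEB1-KO it was 0.17 ± 0.35.

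Slc2a8 (chromosome 2, 32972990 to 32982083, minus strand) varied least among the members. In wild type its mean was 28.1 ± 8.42 TPM without and 27.3 ± 5.66 TPM with LPS (SD, n = 3). In knockout it was 24.9 ± 4.11 TPM without and 31.2 ± 9.11 TPM with LPS. No pair of these groups was separated, and the log2 fold changes with LPS were -0.38 ± 0.24 in WT and 0.33 ± 0.24 in CPEB1-KO.

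Slc2a12 encodes GLUT12, a glucose transporter of insulin-sensitive and secretory tissues. The WT libraries had 8.37, 6.67 and 4.47 TPM, and the WT-LPS libraries 1.4, 0.9 and 1.46 TPM. Without LPS the CPEB1-KO libraries had 9.42, 9.06 and 9.12 TPM, against 2.97, 2.24 and 2.01 TPM with LPS. In TPM the 4 groups were separate from each other in the order CPEB1-KO, WT, CPEB1-KO-LPS and WT-LPS. In CPM (counts scaled by library size) the untreated groups overlapped, at 11.6 to 21.5 in WT and 18.9 to 21.2 in CPEB1-KO. Their fitted difference was 0.17 ± 0.26, and its sign changed without WT replicate 3 (-0.0532). With LPS it was lower by a log2 fold change of -2.74 ± 0.29 (6.69-fold) in WT and -1.91 ± 0.27 (3.76-fold) in CPEB1-KO, so it shared the direction of Slc2a5 in both genotypes. Choroid plexus and ependymal markers were also called lower with LPS, 7 of 7 in WT and 5 of 7 in CPEB1-KO. Of all genes, 14.9% and 2.12% were called lower in these comparisons. Ttr, the thyroid hormone carrier transthyretin, and Kcnj13, a potassium channel, had values of -2.08 ± 0.36 and -3.85 ± 0.44 in WT. The list summed to 7171 to 9169 TPM in CPEB1-KO and 4443 to 7786 TPM in WT, which overlap. After LPS it summed to 2523 to 3726 TPM in knockout and 1130 to 2307 TPM in wild type, so the list also had its lowest sums in WT-LPS. No marker of the list was at 0, and the part of choroid plexus RNA in the Slc2a12 values was not tested.

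Slc2a13 encodes HMIT, which carries myo-inositol together with a proton and is not a sugar transporter in the strict sense, although it belongs to the family. It lies on chromosome 15 (91267696 to 91573261, minus strand). The WT libraries had 12.8, 4.13 and 4.94 TPM, and with LPS 19.03, 8.79 and 9.87 TPM. The CPEB1-KO libraries had 12.51, 19.08 and 18.59 TPM, and with LPS 14, 17.67 and 8.64 TPM. Replicate 1 was highest in both wild-type groups, and all pairs of groups compared overlapped. In each of the 3 same-numbered wild-type pairs the WT-LPS library was above the WT library. The differences with LPS were 0.47 ± 0.36 in WT and -0.30 ± 0.35 in CPEB1-KO, and without WT replicate 1 the former was 1.01 and was called. It was 0.56 ± 0.24, not called, in the blocked fit of the wild-type groups. Replicate 1 also had the highest summed neuron marker level in both wild-type groups, at 3415 and 5515 TPM, and the neuronal part of the Slc2a13 signal was not tested.

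Counted together, 1 member was called higher (Slc2a1) and 3 were called lower (Slc2a5, Slc2a6 and Slc2a12) with LPS in WT, where 12.4% and 14.9% of all genes were called higher and lower. In CPEB1-KO, 0 members were called higher and 2 were called lower (Slc2a5 and Slc2a12), where the shares of all genes were 4.10% and 2.12%. Since LPS responses were taken to have chosen the members, nothing is read from these counts. In TPM, 1 member lay wholly higher and 2 wholly lower with LPS in WT, against 27.4% and 10.8% of all genes. In CPEB1-KO it was again 1 and 2, against 16.2% and 15.0%. By same-numbered wild-type pairs, 3 members were higher in TPM with LPS in all 3 pairs (Slc2a1, Slc2a3 and Slc2a13) and 3 were lower (Slc2a5, Slc2a6 and Slc2a12), beside 44.4% and 18.4% of all genes. The median log2 fold change of the members was -0.38 in WT and 0.05 in CPEB1-KO, beside medians over all genes of -0.03 and -0.000245.

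**Figure D2:**
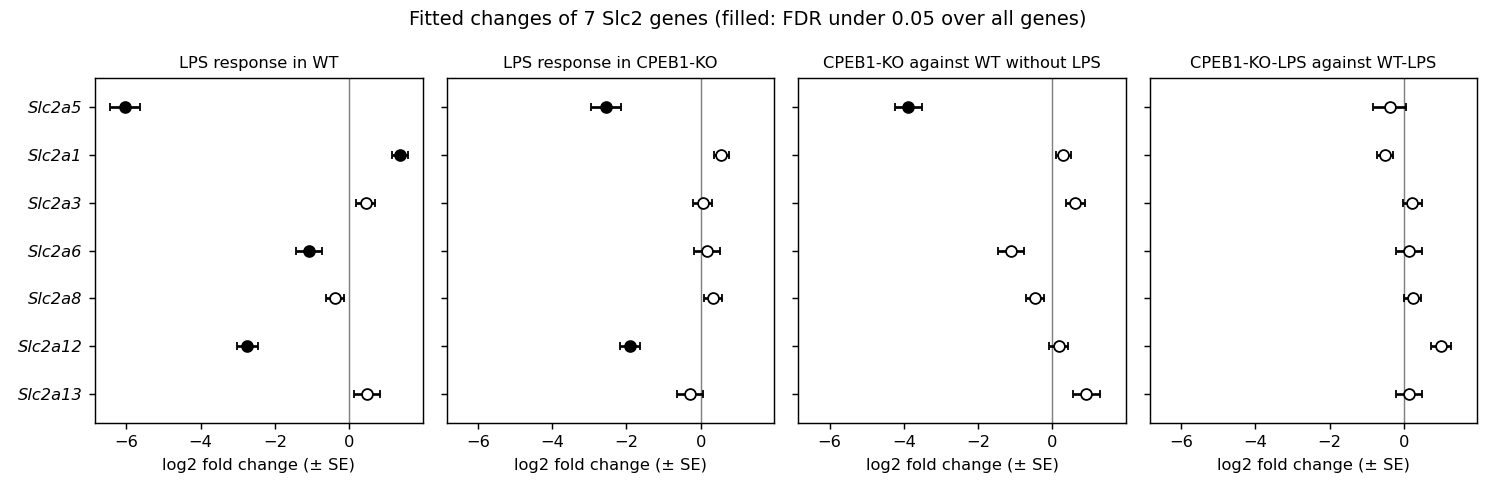
Log2 fold changes (horizontal axis, with bars of 1 SE) of the 7 genes in 4 comparisons fitted to all 12 libraries, filled where the FDR over all genes was under 0.05. Slc2a5 is filled in the first 3 panels, at -6.04, -2.55 and -3.88, and lies at -0.39 in CPEB1-KO-LPS against WT-LPS.

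The remaining family members were low in every group. Slc2a7, another intestinal hexose carrier, had 0 counts in all 12 libraries although it begins 4802 bases after the end of Slc2a5, and Slc2a2, the liver and islet glucose transporter, had at most 2 counts in a library. Slc2a4 (the insulin-responsive GLUT4) averaged 0.747 TPM in WT and 3.10 TPM in WT-LPS, Slc2a9 (a urate carrier) 2.08 and 3.70 TPM, and Slc2a10 (GLUT10) 0.357 and 1.26 TPM. Of the 3 that were tested, edgeR called 1 with LPS in WT, Slc2a10 at 1.41 ± 0.48, on 3 to 11 counts per WT library. It did not call Slc2a4 (1.66 ± 0.59) or Slc2a9 (0.48 ± 0.34), and it called 12.4% of all genes higher. DESeq2 called 2 of the 3, and 5074 of 15289 over all genes. In TPM, Slc2a4, Slc2a9 and Slc2a10 lay wholly higher in WT-LPS than in WT, as did 27.4% of all genes. In CPEB1-KO, 0 of 3 were called by edgeR (2 at an unadjusted p under 0.05) or by DESeq2.

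Because TPM is per length, the make-up of the family can be given within each library. Slc2a5 held 28.9%, 21.2% and 13.4% of the summed TPM of the 7 members in the 3 WT libraries. Its share was 0.434%, 0.360% and 0.290% in WT-LPS, 2.15%, 1.20% and 2.09% in CPEB1-KO and 0.256%, 0.174% and 0.453% in CPEB1-KO-LPS. Every WT library had a larger share of Slc2a5 than every library of the other groups.

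The members summed to means of 174 ± 45.7 TPM (WT), 195 ± 24.9 TPM (WT-LPS), 171 ± 4.24 TPM (CPEB1-KO) and 183 ± 34.9 TPM (CPEB1-KO-LPS). Slc2a1 held 13.9 ± 1.46% of this sum in WT, 39.3 ± 7.76% in WT-LPS, 21.3 ± 2.52% in CPEB1-KO and 28.7 ± 4.02% in CPEB1-KO-LPS. Slc2a3 held 17.0 ± 4.19%, 26.7 ± 8.28%, 33.4 ± 0.993% and 31.6 ± 4.32% in the same order. In WT, Slc2a5 was above Slc2a1 in all 3 libraries, by ratios of 2.06, 1.39 and 1.09. Slc2a1 was above Slc2a5 in the others, by 8.56 to 19.4 times in CPEB1-KO, 72.7 to 162 times in WT-LPS and 73.1 to 146 times in CPEB1-KO-LPS.

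**Figure D3:**
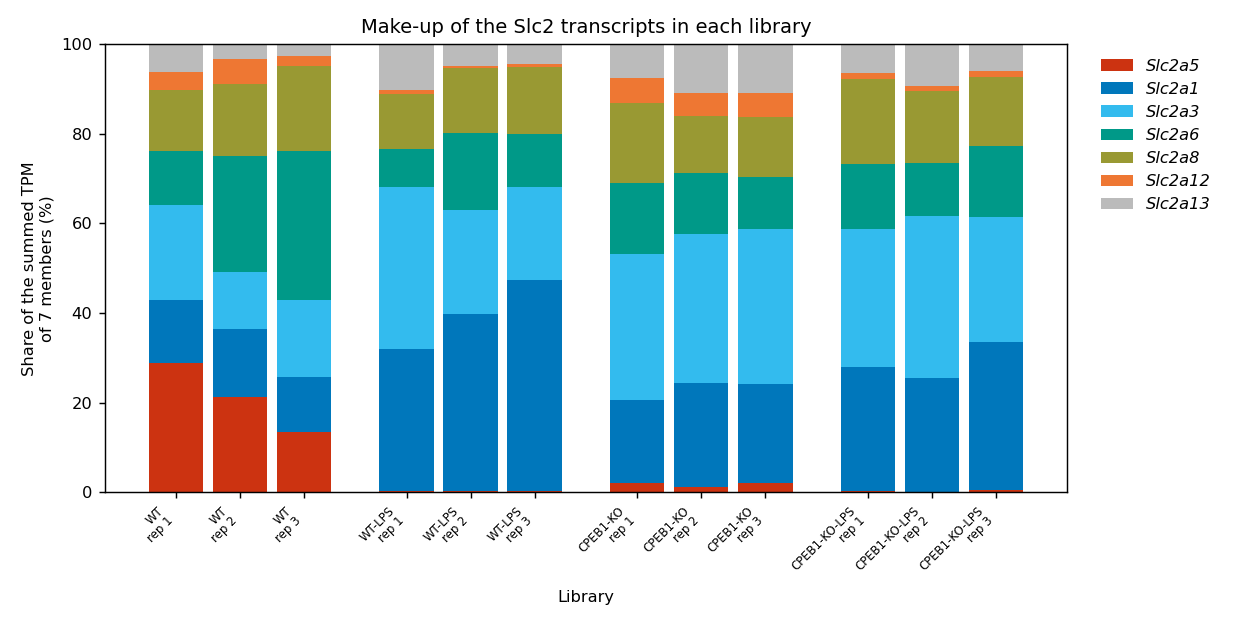
Share of the summed TPM of the 7 members (percent, vertical axis) held by each gene, 1 bar per library. Slc2a5 holds 13.4% to 28.9% in the WT libraries and at most 2.15% in the other 9.

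The fructose transporter differed between the genotypes without LPS. Slc2a5 had a mean of 37.2 ± 19.96 TPM in WT and 3.08 ± 0.849 TPM in the libraries labelled CPEB1-KO, and the groups did not overlap. The log2 fold change was -3.88 ± 0.35 (-4.64 to -3.11), a 14.7-fold lower level (edgeR, adjusted p = 0.000367), with all 3 CPEB1-KO libraries below all 3 WT libraries. Its unadjusted p was the second smallest of all genes tested. The share of Slc2a5 in the family total was 11.7-fold lower in CPEB1-KO (two-sided exact permutation test, p = 0.1, the smallest that 3 against 3 libraries can give).

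By edgeR no other member passed in that comparison (3 others had an unadjusted p under 0.05), nor did one by DESeq2. Slc2a5 was 1 of 5 genes called, all lower in CPEB1-KO, which is 0.0327% of genes; the others were Gm13304, Gm5512, Cuedc1 and Taf15, named here because the count was small. The glucose transporters gave log2 fold changes of 0.30 ± 0.21 for Slc2a1 (edgeR adjusted p = 0.453), 0.62 ± 0.26 for Slc2a3 (0.229), -1.11 ± 0.35 for Slc2a6 (0.180), -0.48 ± 0.24 for Slc2a8 (0.300) and 0.17 ± 0.26 for Slc2a12 (0.744). The inositol carrier Slc2a13 gave 0.92 ± 0.36 (0.215). Without WT replicate 1, Slc2a6 at -1.41 and Slc2a13 at 1.46 also passed (adjusted p = 0.0246 and 0.0261, edgeR). That fit called 1292 of 15550 genes, against 5 with all 12 libraries, so the number of calls moved with this 1 library. In TPM, 3 members lay wholly higher in CPEB1-KO (Slc2a1, Slc2a3 and Slc2a12) and 1 wholly lower (Slc2a5), where 26.7% and 5.09% of all genes did so.

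Genes near Slc2a5 on chromosome 4 were examined after its values were seen. Of 5 other tested genes within 2e+05 bases, 0 passed between CPEB1-KO and WT by edgeR, with log2 fold changes of -0.12 for Spsb1, -0.37 for H6pd, -1.13 for Gpr157, -0.53 for the enolase gene Eno1 and -0.05 for Rere. Gpr157, the neighbour upstream, was the lowest of them (± 0.48, adjusted p = 0.241).

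The homeostatic markers of microglia had lower fitted values in CPEB1-KO as well. All 12 had negative log2 fold changes, from -0.75 for Sall1 to -1.87 for Fcrls. By edgeR 0 of 12 passed the threshold (4 at an unadjusted p under 0.05). DESeq2 called 1 of them, and 519 of 15289 over all genes. Examples were P2ry12, a purinergic receptor, at -1.13, Tmem119 at -1.12 and Cx3cr1, the fractalkine receptor, at -1.20. The summed levels given above did not overlap between WT and CPEB1-KO, and no marker was at 0.

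The level of Slc2a5 can also be given relative to the marker sum in the same library. There were 0.954, 0.372 and 0.422 TPM of Slc2a5 per 100 TPM of the 12 markers in WT, and 0.0771, 0.0613 and 0.122 in CPEB1-KO. The groups did not overlap, and the means differed by 6.72 times (two-sided exact permutation test, p = 0.1, the smallest possible); this ratio was chosen after the data were seen, and the part of microglial content in the genotype difference was not tested. With LPS the ratio was 0.0804, 0.0138 and 0.0206 in WT-LPS and 0.0456, 0.0483 and 0.0228 in CPEB1-KO-LPS, and these groups overlapped.

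**Figure D4:**
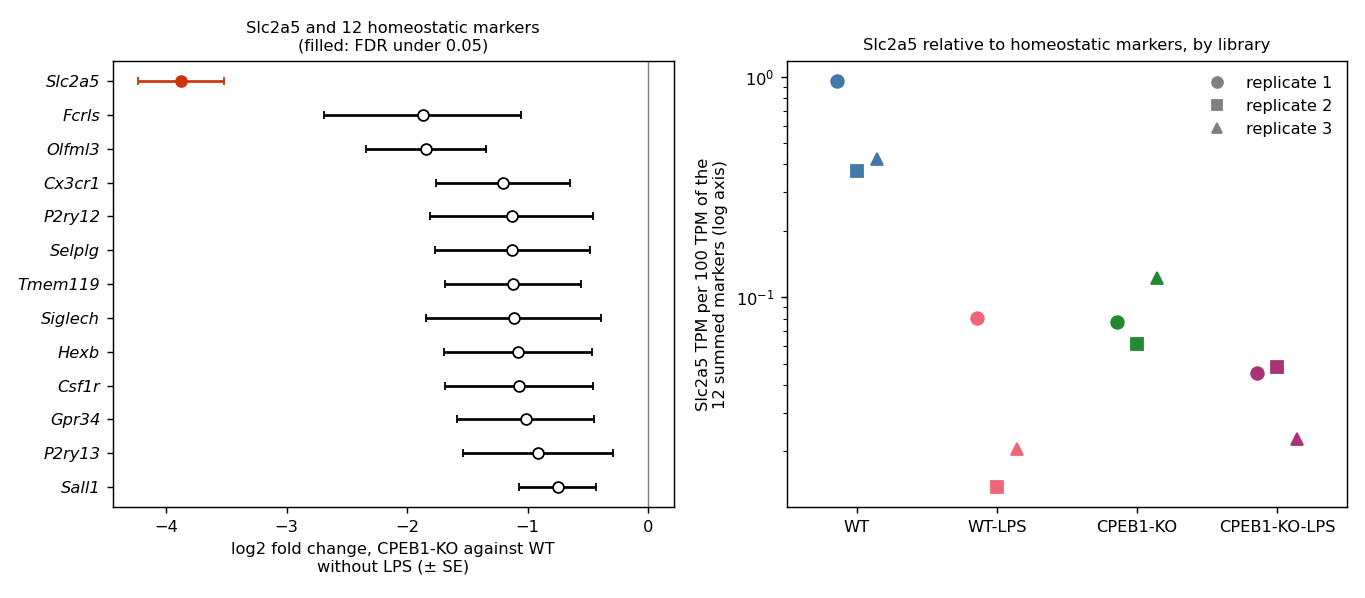
Left, log2 fold change (bars of 1 SE) of Slc2a5 and of 12 homeostatic microglial markers between CPEB1-KO and WT without LPS, filled where the FDR was under 0.05. Right, Slc2a5 TPM per 100 TPM of the summed markers in each library (log axis), from 0.372 to 0.954 in WT and from 0.0613 to 0.122 in CPEB1-KO.

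After LPS, no member passed the test between the genotypes. By edgeR 0 of 7 passed between CPEB1-KO-LPS and WT-LPS (2 of 7 at an unadjusted p under 0.05, Slc2a1 and Slc2a12), where 0.00654% of all genes were called, and DESeq2 also called 0. Slc2a5 differed by -0.39 ± 0.44 (-1.34 to 0.57, edgeR adjusted p = 0.756). Slc2a12 had the largest value, at 1.00 ± 0.28 (adjusted p = 0.361, edgeR), and it was the 1 member whose groups did not overlap in TPM, all 3 CPEB1-KO-LPS libraries being above WT-LPS. Of all genes, 3.73% lay wholly higher in this way. Slc2a1 was at -0.51 ± 0.21 (adjusted p = 0.438, edgeR), and the other 4 members were between 0.13 and 0.24.

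The interaction, the LPS response in CPEB1-KO minus that in WT, was 3.49 ± 0.57 (2.27 to 4.71) for Slc2a5. By edgeR it did not pass over all genes. It passed with DESeq2 (3.45), where 301 of 15289 genes did, and by edgeR without WT replicate 1 (3.11), where 441 of 15550 did. The interaction is a difference of LPS responses, which were known when the members were chosen, so nothing is read from these calls. By edgeR 0 of 7 members passed (4 at an unadjusted p under 0.05), beside 0.00654% of all genes. The interaction values were -0.81 ± 0.30 for Slc2a1, 1.24 ± 0.49 for Slc2a6 and 0.83 ± 0.38 for Slc2a12. Those of Slc2a8, Slc2a13 and Slc2a3 were 0.71 ± 0.34, -0.77 ± 0.50 and -0.39 ± 0.36. Averaged over both treatments, the genotype difference of Slc2a5 was -2.66 ± 0.57 (edgeR adjusted p = 0.160), and 0 of 7 members passed (3 at an unadjusted p under 0.05) where 0.111% of genes did. DESeq2 called it at -2.32 (adjusted p = 0.00253), and edgeR called it without CPEB1-KO-LPS replicate 3, at -3.01 (adjusted p = 0.0300). Over all genes, DESeq2 called 108 in this comparison and that edgeR fit 47.

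Genes that handle sugars beside these transporters were taken as 7 lists with 39 tested genes, the rest of the Slc2 family among them. With LPS in WT edgeR called 13 of the 39 and DESeq2 17. Of all genes, edgeR called 27.4% in either direction there, and DESeq2 called 5074 of 15289. With LPS in CPEB1-KO edgeR called 1 of the 39 (12 at an unadjusted p under 0.05) and DESeq2 5. Of all genes, edgeR called 6.22% there, and DESeq2 called 1655 of 15289. The counts in the next paragraphs are by edgeR unless DESeq2 is named. Of 7 tested genes that use or make fructose, 0 were called higher and 1 lower with LPS in WT, with a median log2 fold change of -0.58. In CPEB1-KO 0 were called by edgeR (3 at an unadjusted p under 0.05) and 1 by DESeq2. The one called was the aldo-keto reductase Akr1b10, at -1.01 ± 0.23. Khk, the ketohexokinase that phosphorylates fructose, was at -1.12 ± 0.40 in WT and 0.05 ± 0.39 in CPEB1-KO, not called in either, and it averaged 34.0 ± 8.07 TPM in WT and 23.5 ± 5.72 TPM in CPEB1-KO. Sord, which makes fructose from sorbitol, was at -0.58 ± 0.21 in WT and was not called.

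Among 8 genes that phosphorylate hexoses or release them, edgeR called 0 higher and 3 lower with LPS in WT. In CPEB1-KO it called 0 (2 at an unadjusted p under 0.05), while DESeq2 called 2. Hk3, the hexokinase of myeloid cells, was at -1.85 ± 0.38 in WT and, uncalled, -1.29 ± 0.38 in CPEB1-KO. G6pc3, a glucose-6-phosphatase, was at -0.76 ± 0.18 in WT. The glucose-6-phosphate carrier Slc37a4 was at -0.16 ± 0.19 in WT and 0.62 ± 0.19 in CPEB1-KO, uncalled. Hk1 and Hk2, the general hexokinases, named after their values were seen, were at 0.79 ± 0.29 and -0.23 ± 0.36 in WT and were not called.

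Of 8 genes that sort glucose transporters to or from the cell surface, edgeR called 1 higher and 1 lower in WT: Tbc1d1, a Rab GTPase-activating protein, at 0.96 ± 0.32, and Aspscr1, a tether of GLUT4 vesicles, at -0.81 ± 0.24. The arrestin-family gene Arrdc4 was at 0.84 ± 0.31 and the retromer adaptor Snx27 at -0.14 ± 0.23, neither called. In CPEB1-KO 0 of 8 were called by edgeR (3 at an unadjusted p under 0.05) or DESeq2. Among 5 tested sugar and inositol carriers of other families, 0 were higher and 2 lower in WT, Slc5a11 (a sodium-coupled inositol carrier) at -2.76 ± 0.58 and Slc50a1 (a SWEET-type sugar carrier) at -1.18 ± 0.33. Slc5a3, the main sodium-coupled inositol carrier, was at -0.21 ± 0.27 and Slc45a1 at 0.48 ± 0.25, and 0 of 5 were called in CPEB1-KO by edgeR (0 at an unadjusted p under 0.05) or DESeq2.

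Of 4 tested genes of inositol metabolism, 2 were lower in WT, Impa2 at -1.25 ± 0.36 and Isyna1, which makes inositol phosphate from glucose 6-phosphate, at -0.98 ± 0.32. In CPEB1-KO edgeR called 0 of 4 (0 at an unadjusted p under 0.05), as did DESeq2. The other monophosphatase, Impa1, was at 0.26 ± 0.24 and Inpp1 at -0.04 ± 0.26. Of 4 lactate carriers, Slc16a1 was called higher at 0.60 ± 0.20 and Slc16a7 lower at -1.14 ± 0.38 in WT, and Slc16a7 was the 1 called in CPEB1-KO by edgeR, at -1.41 ± 0.38, where DESeq2 called 2. Slc16a3 and Slc16a8, at 0.61 ± 0.42 and -1.29 ± 0.55 in WT, were not called. Between the genotypes without LPS, edgeR called 0 of the 39 genes (13 at an unadjusted p under 0.05) and DESeq2 called 2. Between CPEB1-KO-LPS and WT-LPS both tools called 0 (3 at an unadjusted p under 0.05 by edgeR). In the interaction edgeR called 0 (7 at an unadjusted p under 0.05) and DESeq2 2. Of all 15295 genes, 2844, 1653 and 2365 met the unadjusted cut in these comparisons. In the same order, DESeq2 called 519, 90 and 301 of 15289 genes.

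The genes whose profiles were nearest to a member were taken by the root mean square difference of log2 CPM over the 12 libraries. Each gene was centred on its own mean. Genes with names of predicted genes (Gm plus digits, or ending in Rik) were left out before ranking. For Slc2a5 these were Olfml3, an olfactomedin of microglia, at 0.944, the crystallins Cryba4 at 1.01 and Crybb1 at 1.06, and Gal3st4 and Hpgd at 1.12 each, among 11005 candidates. These distances were below the root mean square of 2.46 of Slc2a5 about its own mean, and the median candidate lay at 2.50. They were larger than the distances of the genes nearest to the other members. All 5 genes nearest to Slc2a5 were lower with LPS in both genotypes in the fit, from -3.77 (Hpgd) to -5.66 (Crybb1) in WT. Their values between CPEB1-KO and WT ran from -1.06 (Gal3st4) to -1.84 (Olfml3), a narrower difference than the -3.88 of Slc2a5. Gm5512, at -4.60 between these groups, was left out of the candidates by its name.

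The nearest genes to Slc2a1 were Kremen1 (0.137), Slc6a6 (0.141), Hcfc1 (0.152), Nln (0.159) and Pcnt (0.165), at distances well below its own root mean square of 0.548. For Slc2a6 they were Bcat2 (0.155), Tor1b (0.160), Diablo (0.162), Adam15 (0.168) and Cpsf4 (0.174). Slc2a13 was nearest to Syn2 (0.125), Usp29 (0.136) and Kifap3 (0.137), and Syn2 encodes a synaptic vesicle protein. Slc2a12 was nearest to Car12 (0.317), Cox8b (0.356) and Dleu2 (0.383), Slc2a3 to Bbs4, Cnnm1 and Lancl1, and Slc2a8 to Arvcf, Clcn7 and Zbtb17. The libraries and their depth are common to all these genes, and likeness is given as a description.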

How the data were processed

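Expected counts and TPM of 23845 genes in 12 libraries were deposited by the authors. Per the submitters' processing notes, cutadapt, RSEM and mm10 were used; the aligner, versions and filters are not stated there. The deposited expected counts are not normalised between libraries, and the deposited TPM values were scaled by the authors within each library.

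Expected counts were rounded and fitted with edgeR 4.0.16 (R 4.3.3): filterByExpr, TMM scaling, a quasi-likelihood model with 1 mean per group over all 12 libraries (8 residual degrees of freedom), and an additive model for the average genotype difference. Benjamini-Hochberg FDR was taken over 15295 genes. TPM was used for levels and shares, with SD over 3 libraries. Shares and ratios between genotypes had exact permutation tests. Expected counts per library are the depth, and counting error is in the fit. Alternatives were RLE factors, DESeq2 1.42.0, other filters, limma 3.58.1 on log2(TPM + 1) and log2(TPM + 0.1), a replicate block, fits of the groups compared only, each library left out, and other denominators; leaving out both shallow WT libraries, the blocked fit of WT and WT-LPS alone and the ratio to homeostatic markers were added after seeing the data. The labels give replicate numbers but no shared litter or day. Deviations from group means correlated over 0.1 in all 3 same-numbered pairs of WT and WT-LPS (r from 0.149 to 0.378). These are therefore also given by pair, and in no other combination of groups did all 3 do so. Some libraries of unlike number correlated as highly, such as WT 2 and CPEB1-KO-LPS 3 (r = 0.376). WT 2 was also about as near to WT-LPS 3 (0.141) as to WT-LPS 2 (0.149), so the pairing is not established.

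The members and gene lists were chosen with earlier results of these data known. Named were the 7 members, the rest of the family and the first markers of a list. Up to 4 genes of each sugar list were taken by smallest unadjusted p with LPS. The genes nearest to each member needed a mean of at least 5 TPM and a name that is not of a predicted gene. Some genes that this rule takes from the sugar lists are not reported here by name.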

Additional observations from a re-analysis of the deposited data

How the results depend on the processing

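Slc2a5 between CPEB1-KO and WT was called in all 21 alternatives, and the log2 fold change ran from -4.41 to -3.13, with adjusted p from 1.15e-22 to 0.0196. Without both shallow WT libraries, 2 members were called with LPS in WT instead of 4: Slc2a1 (1.33) and Slc2a6 (-0.13) were lost, Slc2a13 changed sign to -0.13, and the average genotype value of Slc2a8 became 0.0125. The LPS call of Slc2a6 in WT also failed in 7 of 12 fits that left out 1 library, among them those without each of WT replicates 2 and 3 and WT-LPS replicates 1 and 3, in both limma fits and in the fit of the 2 groups alone. DESeq2 called 1 member (Slc2a5) in the interaction and 1 in the average genotype difference, and 519 genes between CPEB1-KO and WT against 5 by edgeR, of which 23.7% were higher against 0%. With limma on log2(TPM + 1), 75.7% of calls with LPS in WT were higher against 45.4% by edgeR, and 37.5% against 17.6% in the average genotype difference. On the TPM scale with pseudocounts of 1 and 0.1, Slc2a3 with LPS in CPEB1-KO was at -0.00269 and -0.00341, and the average genotype values were 0.0325 and 0.0385 for Slc2a1 and 0.0133 and 0.0137 for Slc2a8, signs opposite to the edgeR values. With Slc2a1, Slc2a3 and Slc2a5 as denominator, the Slc2a5 share was 39.9% in WT, 0.544% in WT-LPS, 3.23% in CPEB1-KO and 0.486% in CPEB1-KO-LPS. The causes of these changes were not tested.

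Leaving out 1 library at a time gave 3 to 5 members called with LPS in WT, 2 in CPEB1-KO and 1 to 3 between CPEB1-KO and WT. It gave 0 after LPS, 0 to 1 in the interaction and 0 to 1 in the average difference. Over all genes, the fit without WT replicate 1 called 1292 between CPEB1-KO and WT and 441 in the interaction. With all libraries these were 5 and 1. Slc2a5 shares ran from 17.3% to 25.1% in WT, 0.325% to 0.397% in WT-LPS, 1.64% to 2.12% in CPEB1-KO and 0.215% to 0.355% in CPEB1-KO-LPS. Values that changed sign were Slc2a3 with LPS in CPEB1-KO (-0.0647 to 0.175), Slc2a12 between CPEB1-KO and WT (-0.0532 to 0.299), Slc2a6 (-0.20 to 0.43) and Slc2a13 (-0.10 to 0.46) between CPEB1-KO-LPS and WT-LPS, and the average values of Slc2a1 (-0.234 to 0.0271) and Slc2a8 (-0.251 to 0.0110).

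Outside the pairs of WT and WT-LPS, same-numbered libraries did not all correlate over 0.1, and over all 18 pairs the median r was -0.0833. For 5 of 12 libraries the mean r was higher with their own number than with other numbers. With the replicate number as a block over all 12 libraries, 3 members were called with LPS in WT (Slc2a6 was not), 2 with LPS in CPEB1-KO, 1 between CPEB1-KO and WT and 0 elsewhere, and the blocked fit of WT and WT-LPS alone called 4. Slc2a5 after LPS rests on 8 to 17 counts per library, and its 95% interval between the genotypes was -1.34 to 0.57. Nothing is read from setting this beside the value without LPS.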
